A study of Mus musculus with 20 samples.

Results

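The Kcnq1ot1-Cdkn1c imprinted domain on mouse chromosome 7 was described through its promoter windows, the stretches of DNA around gene start sites for which a methylation level was measured in single blastocysts. Its members were all promoter windows on chromosome 7 whose start lies between 142500000 and 143120000 on build GRCm39. This range holds 27 of the 54034 windows measured, and each window is 3500 bp long, running from about 3000 bp before a start site to a short way past it. Methylation was read by bisulfite sequencing, in which unmethylated cytosines are converted and methylated ones are not, from DNA of 10 control embryos (replicates 1 to 10) and 10 embryos of the Padi6-mutant group (replicates 11 to 20). Per the study's design text, the mutant embryos grew from oocytes carrying the P620A form of Padi6, an egg protein of the peptidylarginine deiminase family, and they are those that had got past a block at the 2-cell stage. The control group is labelled only as control. The labels name no mother, litter, strain, age, sex or sequencing batch, so embryos of a group may be siblings and p-values speak only of the scatter among these 20 embryos.

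An imprinted domain is a group of neighbouring genes of which some are read from a single parental copy. In this domain the promoter of the noncoding RNA Kcnq1ot1 lies within the potassium channel gene Kcnq1 and is methylated in the egg, so the maternal copy is methylated and silent, while the unmethylated paternal copy makes the RNA, which silences its neighbours on that chromosome. The silenced neighbours include Cdkn1c, a cyclin-dependent kinase inhibitor that restrains growth, Phlda2, which restrains placental growth, Slc22a18, a membrane transporter, and in the placenta Ascl2, a transcription factor of trophoblast precursors. After fertilization the maternal mark has to be copied at each division by the maintenance methyltransferase DNMT1 with its partner UHRF1. In the RefSeq gene table (build GRCm38.p6) the 9 members follow each other in the order Ascl2, Cd81, Tssc4, Kcnq1, Kcnq1ot1, Cdkn1c, Slc22a18, Phlda2, Nap1l4, with Kcnq1ot1 lying inside Kcnq1. Cd81 encodes a tetraspanin of the cell surface and Nap1l4 a nucleosome assembly protein.

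CpG dinucleotides are what the methylation level is counted on, so 3 promoters of the domain that differ in their CpG content are shown, from RefSeq (build GRCm38.p6), 5′ to 3′ along the strand of the gene. Every CpG is in capitals. For the noncoding RNA the sequence runs from 250 bases before the start site to 50 after it, and for the protein-coding genes it holds the 250 bases before the start site.
Kcnq1ot1 (chr7:143296498-143296797, minus strand): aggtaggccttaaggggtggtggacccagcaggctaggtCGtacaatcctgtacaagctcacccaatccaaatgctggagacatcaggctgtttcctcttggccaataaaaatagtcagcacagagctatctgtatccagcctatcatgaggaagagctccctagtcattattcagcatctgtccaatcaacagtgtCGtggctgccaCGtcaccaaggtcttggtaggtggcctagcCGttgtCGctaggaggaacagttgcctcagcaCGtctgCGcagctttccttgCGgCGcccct
Phlda2 (chr7:143502525-143502774, minus strand): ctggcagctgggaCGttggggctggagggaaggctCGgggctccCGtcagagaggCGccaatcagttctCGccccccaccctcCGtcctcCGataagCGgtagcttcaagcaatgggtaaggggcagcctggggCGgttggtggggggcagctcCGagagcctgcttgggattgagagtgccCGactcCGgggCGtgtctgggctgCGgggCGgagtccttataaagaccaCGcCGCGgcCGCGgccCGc
Slc22a18 (chr7:143473539-143473788, plus strand): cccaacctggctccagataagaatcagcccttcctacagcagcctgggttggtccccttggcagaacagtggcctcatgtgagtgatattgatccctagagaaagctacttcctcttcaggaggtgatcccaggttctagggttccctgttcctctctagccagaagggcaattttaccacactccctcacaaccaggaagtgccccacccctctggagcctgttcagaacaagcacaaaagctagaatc

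Over the full 300 bases of each promoter, the 6 members with an entry in the sequence table differed widely in CpG content. Kcnq1ot1 held 9 CpGs, and 45.8% of the 32817 promoters of the table held as many. Phlda2 held 26, and Ascl2, Cd81 and Tssc4 held 23 each, against 2 in Slc22a18, both of them past the start site and so outside the stretch shown. The 3 CCAAT letters of the Kcnq1ot1 promoter, on the strand shown and beginning 188, 148 and 67 bases before the start site, are a count that 3.37% of the promoters reached when both strands were searched. Ascl2 also held 3 of them, and 37.4% of promoters held at least 1. CCAAT is the core of the site bound by the factor NF-Y. The letters TGCCGC, the core of the site of the imprint-guarding zinc finger protein ZFP57, occurred in 11.6% of promoters on either strand and in none of the 6 within these 300 bases. These letters are a description of the reference sequence and not of binding.

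The windows carry positions and no gene names, and no annotation of their build was used, so the sequences above are tied to the methylation levels by gene symbol only. Kcnq1ot1 is given here as the 2 windows that cover the start site position stated in the rule for the domain, 142.85 Mb. Cdkn1c is given as the 2 windows nearest its stated position, 143.01 Mb, which end or begin within 5000 bp of it. The other 23 windows are given by their number along the chromosome, from 1 to 27, and by position.

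Coverage set the limit of every comparison. Read depth is unknown, and an embryo had a value in 2875 to 46950 of the 54034 windows. Of the controls, 6 were densely covered (37049 to 46950 windows) and 4 sparsely (4984 to 17002), whereas 3 mutant embryos, replicates 11, 12 and 14, were densely covered (38549 to 43812) and 7 sparsely (2875 to 13847). In the domain, the densely covered embryos of either group had a value in 21 to 26 of the 27 windows. The sparsely covered controls had 3 to 11 and the sparsely covered mutants 1 to 9. In all there were 169 control and 106 mutant values, of which 59 and 47 were exactly 0% and 6 and 9 exactly 100%. No window had a value in more than 5 mutant or 9 control embryos.

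**Figure D1:**
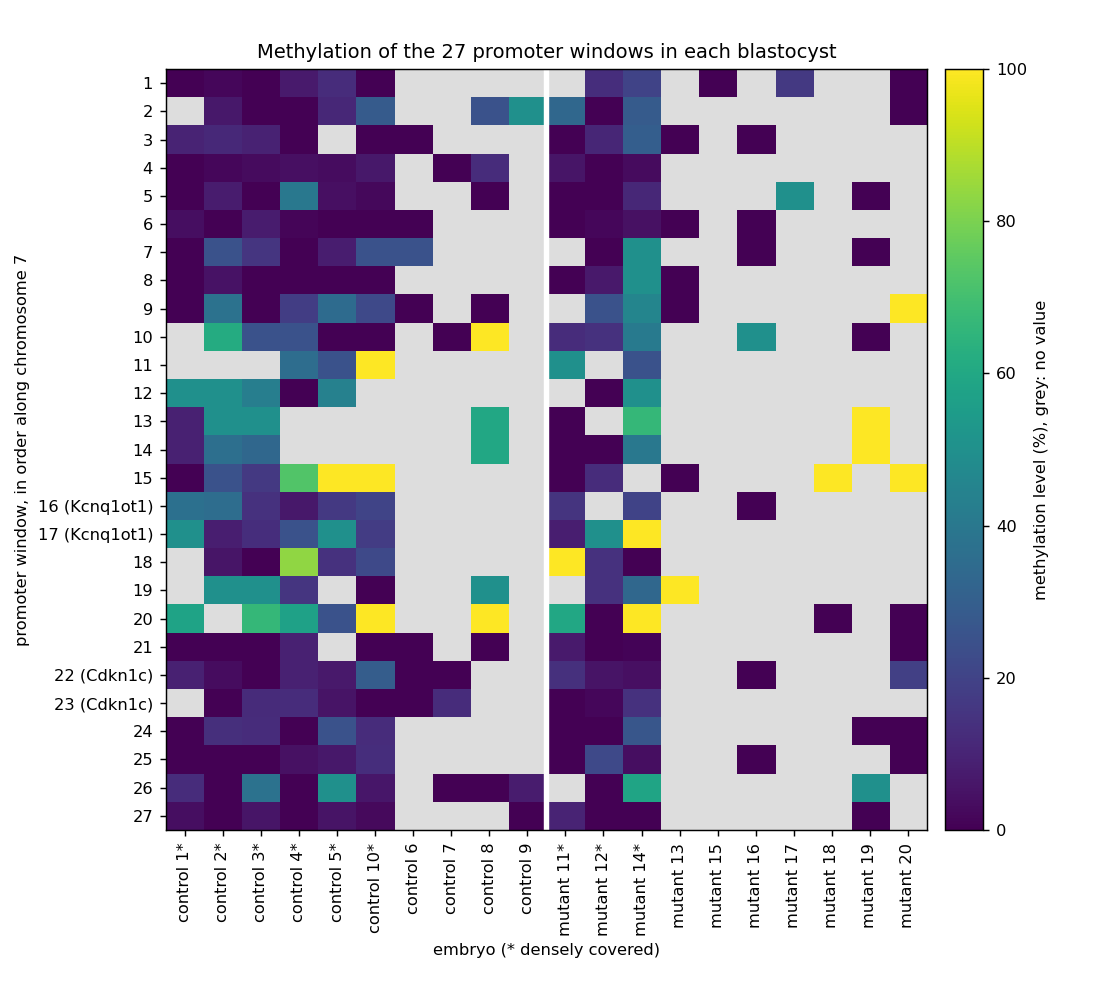
Methylation level in percent (colour) of the 27 windows of the domain (rows, in order along the chromosome) in each of the 20 embryos (columns, controls left and mutants right of the white line; an asterisk marks a densely covered embryo). Grey cells have no value, and the 7 sparsely covered mutant embryos hold 1 to 9 values each.

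The Kcnq1ot1 promoter carried an intermediate methylation level in control blastocysts, and its difference in mutant embryos did not pass the test in either window. In window 16 (chromosome 7, 142848435 to 142851934) the control embryos stood at 37.0% (replicate 1), 35.7% (2), 14.3% (3), 6.25% (4), 16.7% (5) and 20.3% (10). The mutant embryos stood at 15% (replicate 11), 20% (14) and 0% (16), the last a sparsely covered embryo. The 3 mutant embryos were each under the mean of the controls, but the groups overlapped, since 2 of the mutant values fell within the control range. The control mean was 21.7% ± 12.3 (SD, n = 6) and the mutant mean 11.7% ± 10.4 (SD, n = 3), which gave -10.05 percentage points for mutant minus control (SE 7.97, 95% interval -28.3 to 8.22, limma adjusted p = 0.834). It was -4.21 points without mutant replicate 16, as also in densely covered embryos alone.

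The overlapping window 17 (142849787 to 142853286), which shares 2148 bp or 61.4% of its length with window 16, gave a difference of the opposite sign. Its control values were 50% (replicate 1), 8.33% (2), 13.04% (3), 25% (4), 50% (5) and 17.9% (10). The mutant values were 8.33% (replicate 11), 50% (12) and 100% (14), so 1 mutant embryo lay at the bottom of the control range, 1 at its top and 1 above it. The control mean was 27.4% ± 18.4 (SD, n = 6) and the mutant mean 52.8% ± 45.9 (SD, n = 3), or 25.4 points for mutant minus control (SE 18.98, 95% interval -18.1 to 68.9, limma adjusted p = 0.834). Without mutant replicate 14 the difference in window 17 was 1.78 points, and without mutant replicate 11 it was 47.6 points. It was 38.1 points after quantile normalization.

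Each of the 2 intervals holds both a loss and a gain, so neither is shown. The two-sided exact permutation p, unadjusted, was 0.262 for window 16 and 0.429 for window 17, where 6 against 3 embryos can give no less than 0.0238; 4 windows were tested in this way. In the 8 embryos with a value in both windows, the levels of the pair differed by 1.24 to 80 points, with a median of 15.9. The 80 points came from mutant replicate 14, at 20% in window 16 and 100% in window 17. Averaged over the windows of the pair with a value, the Kcnq1ot1 level of the control embryos was 24.55% ± 11.6 (SD, n = 6). That of the mutant embryos was 30.4% ± 29.1 (SD, n = 4). These means are of unlike makeup. All 6 controls had both windows, whereas mutant replicate 12 entered with window 17 alone and mutant replicate 16 with window 16 alone.

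The 2 windows at Cdkn1c, the growth restraining gene that Kcnq1ot1 silences on the paternal chromosome, were low in both groups. In window 22 (143010486 to 143013985) control levels ran from 0% to 29.4% with a median of 5.15% (n = 8). The 5 mutant embryos stood at 13.95% (replicate 11), 5.26% (12), 3.92% (14), 0% (16) and 18.8% (20). All 5 lay within the control range. The control mean was 7.24% ± 9.79 (SD, n = 8) and the mutant mean 8.38% ± 7.72 (SD, n = 5), which is 1.14 points higher (SE 5.13, 95% interval -10.0 to 12.3, limma adjusted p = 0.959, unadjusted exact permutation p = 0.822).

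In window 23 (143014288 to 143017787) control levels ran from 0% to 12.5% with a median of 5.26% (n = 7), and the mutant embryos stood at 0% (replicate 11), 1.79% (12) and 14.3% (14). The highest mutant value was thus just above the highest control value and the other two lay inside the control range. The difference was -0.70 points (SE 4.74, 95% interval -11.4 to 9.97, limma adjusted p = 0.9753, unadjusted exact permutation p = 1.0). The sign at Cdkn1c is not settled: it turned in window 22 in densely covered embryos (-1.94 points) and without mutant replicate 11 or 20 (-0.25 and -1.45 points). In window 23 it turned after quantile normalization (0.14 points), without control replicate 3 (0.31), 4 or 7 (0.38 each) and without mutant replicate 11 (1.98) or 12 (1.09).

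**Figure D2:**
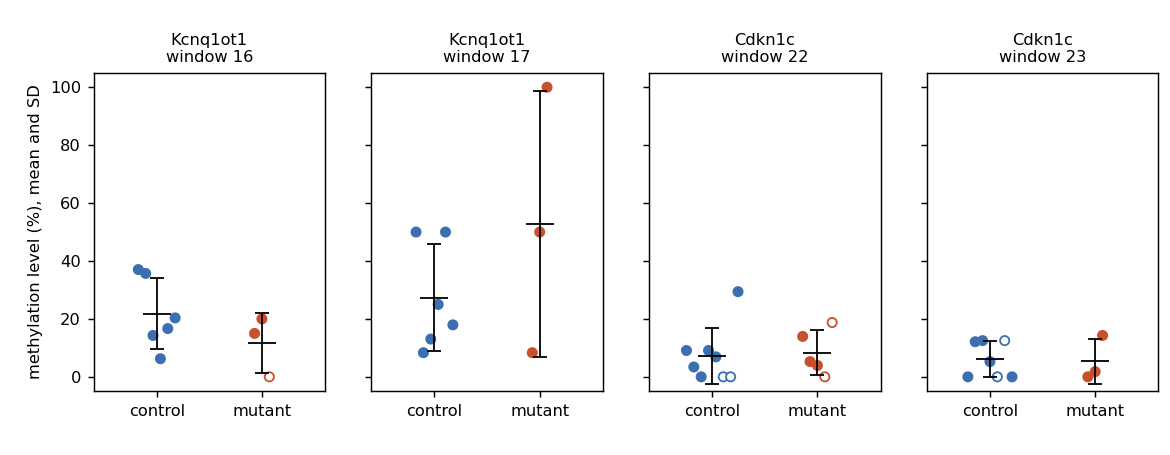
Methylation level in percent of the 2 windows at Kcnq1ot1 and the 2 at Cdkn1c, by group; each point is an embryo (filled where densely covered), the long bar is the mean and the whiskers are 1 SD. The Kcnq1ot1 control values lie between 6.25% and 50%, the Cdkn1c control values between 0% and 29.4%, and the groups overlap in all 4 windows.

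Along the chromosome the control means of the domain fell into a higher middle and lower flanks. In control embryos the 11 neighbouring windows 10 to 20, from 142678529 to 142921362 and including both Kcnq1ot1 windows, had mean levels of 21.7% to 67.8%. The 16 windows on either side, including both Cdkn1c windows, had control means of 0.833% to 17.3%. The limit of 20% was set after the values were seen, so this split is a description. The step at its edge is small: the lowest window of the middle and the highest of the flanks differ by 4.44 points, less than the SD of either.

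Within the middle, the order of the control means was window 20 (67.8% ± 28.7, SD, n = 6), window 11 (53.6% ± 40.6, SD, n = 3), window 15 (52.4% ± 44.1, SD, n = 6) and window 13 (42.3% ± 22.6, SD, n = 4). Windows 12, 14, 19 and 10 followed at 37.3%, 34.7%, 33.1% and 30.2%. The Kcnq1ot1 windows were near the bottom of this order, with window 17 at 27.4%, window 18 at 25.1% and window 16 lowest at 21.7%. None of the 26 pairs of neighbours in the order of all 27 control means differed by more than the SD of either window.

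The control means set the limit and so split by it. The values of the mutant embryos did not enter the choice of these windows. That their means split less cleanly therefore cannot be read as a difference between the groups. The mutant means ran from 11.7% to 55.6% in the middle (median 37.5%) and from 1.27% to 42.6% in the flanks (median 8.26%). Windows 9 and 26 of the flanks, with mutant means of 42.6% and 36.1%, stood above windows 10, 12, 14, 16 and 20 of the middle. For a mean per embryo, overlapping windows within the middle or within the flanks were counted once. Windows 9 and 10, which share 277 bp across the edge, entered the flanks and the middle separately. So averaged, the middle stood at 32.1% (replicate 1), 36.8% (2), 32.1% (3), 38.1% (4), 34.5% (5) and 48.8% (10) in the densely covered controls. The densely covered mutant embryos stood at 33.45% (replicate 11), 13.2% (12) and 45.4% (14). Mutant replicate 12 was therefore below all 6 of these controls, and mutants 11 and 14 were inside their range. The flanks stood at 3.01% to 13.04% in the densely covered controls, and at 6.11%, 5.76% and 22.9% in mutants 11, 12 and 14.

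Within an embryo, the mean of the middle exceeded that of the flanks by 27.3, 7.41 and 22.5 points in mutants 11, 12 and 14. It did so by 21.4 to 39.2 points in the 6 densely covered controls, whose values chose the windows. Among all embryos with a value in both, the middle was higher in 7 of 7 mutants and in 7 of 8 controls, the exception being the sparsely covered control replicate 7, at 0% in the 1 stretch of the middle it covers and above that in the flanks. Over all embryos with a value, the middle averaged 37.5% ± 21.4 (SD, n = 8) among controls and 39.6% ± 14.2 (SD, n = 8) among mutants, and the flanks 7.74% ± 5.08 (SD, n = 10) and 10.6% ± 11.7 (SD, n = 9). The sparsely covered embryos rest on 1 to 4 separate stretches each in the middle, and 4 of the 5 such mutant means were exactly 50%. Each of these 4 (replicates 13, 18, 19 and 20) is the mean of 1 stretch at 0% and 1 at 100%. No stretch of the middle stood near 50% in these embryos. Since the windows were gathered with their values known, no test of these means was made.

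**Figure D3:**
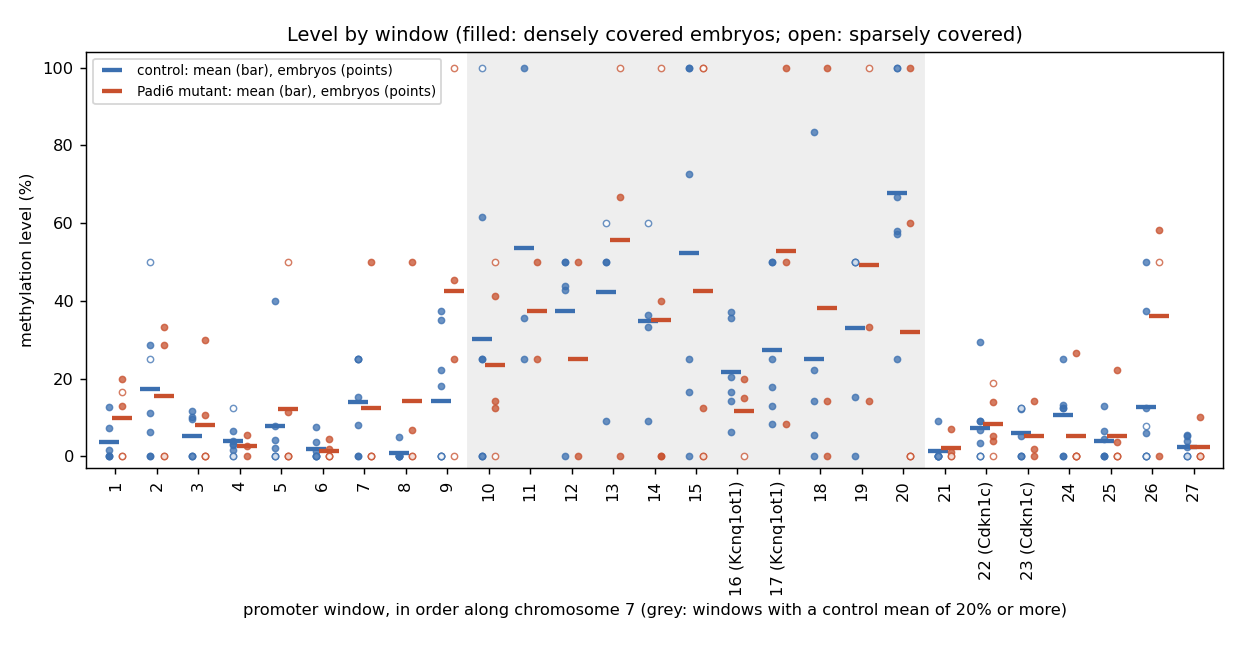
Methylation level in percent (vertical axis) of each of the 27 windows in order along the chromosome; points are embryos (filled where densely covered), short bars are group means, and grey marks windows 10 to 20. Control means are 21.7% to 67.8% in the grey stretch and 0.833% to 17.3% outside it, and mutant values reach both 0% and 100% in window 9 outside it and windows 13, 14, 15, 18 and 20 inside it.

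**Figure D4:**
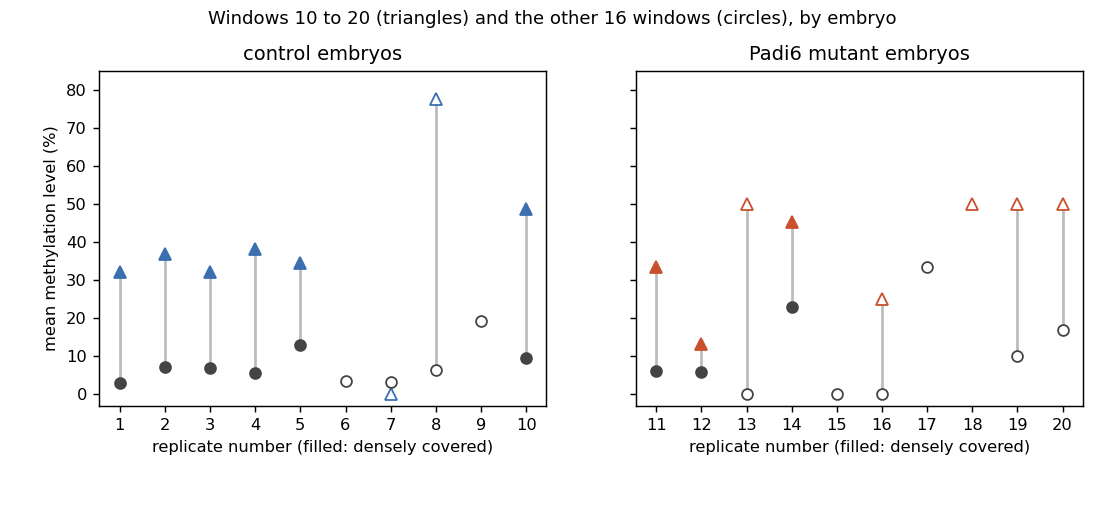
Mean methylation level in percent of windows 10 to 20 (triangles) and of the other 16 windows (circles) in each embryo, by replicate number; filled symbols are densely covered embryos. All 9 densely covered embryos have the triangle above the circle, mutant replicate 12 with the smallest gap (7.41 points) and mutant replicate 14 with the highest circle among them (22.9%).

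Of the remaining windows in the middle, window 20 (142917863 to 142921362) had the highest control level and the largest difference of the domain. Control embryos ran from 25% to 100% with a median of 62.3% (n = 6). The mutant embryos stood at 60% (replicate 11), 0% (12), 100% (14), 0% (18) and 0% (20), so 3 of 5 were at 0% while no control was below 25%, and 1 was as high as the highest control. The difference was -35.8 points (SE 21.2, 95% interval -82.9 to 11.4). It did not pass the test before or after adjustment (limma unadjusted p = 0.122, limma adjusted p = 0.834). It was -52.8 points without mutant replicate 14, -27.8 points without mutant replicate 12, 18 or 20, and -8.01 points (SE 24.4) in densely covered embryos alone.

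Window 15 (142844669 to 142848168) ends 1.83 kb from the stated Kcnq1ot1 position, at lower coordinates and so past the start site of this minus-strand gene. The window took extreme values in both groups. Its control values were 0% (replicate 1), 25% (2), 16.7% (3), 72.7% (4), 100% (5) and 100% (10), and its mutant values 0% (11), 12.5% (12), 0% (13), 100% (18) and 100% (20). Both groups spanned the full range, and the difference was -9.90 points (SE 27.3, 95% interval -70.4 to 50.6). It turned to 0.73 points without mutant replicate 11 or 13, and was -24.3 points without mutant replicate 18 or 20. In densely covered embryos alone, with mutant replicates 11 and 12 only, it was -46.1 points (SE 30.3).

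Windows 14, 18 and 19 were intermediate, with differences smaller than their standard errors. Window 14 (142824303 to 142827802) stood at 34.7% in control (n = 4) and 35.0% in mutant embryos (n = 4), a difference of 0.30 points (SE 23.5). Window 18 (142895174 to 142898673) differed by 13.02 points (SE 27.6; 25.1%, n = 5, against 38.1%, n = 3) and window 19 (142907150 to 142910649) by 16.1 points (SE 21.6; 33.1%, n = 5, against 49.2%, n = 3). In all 3 the sign turned with single embryos left out: window 14 gave -8.23 points without control replicate 1, -0.15 without control 3, -1.36 without mutant 14 and -21.4 without mutant 19. Window 18 gave -17.9 points without mutant 11, and window 19 gave -9.27 without mutant 13.

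The windows left in the middle were 10, 11, 12 and 13. Windows 10 (142678529 to 142682028) and 13 (142823790 to 142827289) differed by -6.63 points (SE 17.8) and 13.3 points (SE 25.1). Both signs turned: window 10 gave 5.00 points without control replicate 8 and 0.35 points in densely covered embryos. Window 13 gave -8.94 points without mutant replicate 19, -3.03 points in densely covered embryos and 41.1 points without mutant replicate 11. Windows 11 (142693846 to 142697345) and 12 (142802104 to 142805603) had a value in 2 mutant embryos each and were not tested. Their mutant values were 25% and 50% in window 11 and 0% and 50% in window 12, against control means of 53.6% ± 40.6 (SD, n = 3) and 37.3% ± 21.1 (SD, n = 5).

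In the flanks the larger differences were gains, and none passed the test. The flanks were chosen by control means under 20%. This leaves room for large gains but little for losses, so the direction is not a result. Window 9 (142675306 to 142678805) had control values from 0% to 37.5% with a median of 9.09% (n = 8) and mutant values of 25% (replicate 12), 0% (13), 45.5% (14) and 100% (20). The mutant values thus reached above and down to the bottom of the control range, and the difference was 28.5 points (SE 15.6, 95% interval -5.80 to 62.8, limma adjusted p = 0.834). Its unadjusted p of 0.0949 was the smallest of the domain. The difference was 9.37 points without mutant replicate 20, 42.7 points without mutant replicate 13 and 16.4 points in densely covered embryos alone.

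Window 26 (143084758 to 143088257) had control values from 0% to 50% with a median of 5.88% (n = 9) and mutant values of 0% (replicate 12), 58.3% (14) and 50% (19). The difference was 23.5 points (SE 13.7, 95% interval -6.64 to 53.6, limma adjusted p = 0.834), and it was 12.4 points without mutant replicate 14, 41.55 points without mutant replicate 12 and 11.5 points in densely covered embryos alone. In window 8 (142657099 to 142660598) the controls were at 0% except replicate 2, at 5% (n = 6). Of 4 mutant embryos there, 2 were at 0% and the others at 6.67% (replicate 12) and 50% (14). The difference of 13.3 points (SE 9.10, limma adjusted p = 0.834) was 1.39 points without mutant replicate 14.

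The other 11 windows of the flanks, outside Cdkn1c, differed by -5.22 to 6.28 points, and in 9 of these 11 the sign turned under at least 1 alternative. The 6.28 points belonged to window 1 (142522502 to 142526001), the window closest to the low end of the range, where controls averaged 3.64% ± 5.31 (SD, n = 6) and mutants 9.91% ± 9.39 (SD, n = 5). The -5.22 points belonged to window 24 (143024473 to 143027972), with 10.6% ± 9.45 (SD, n = 6) and 5.33% ± 11.9 (SD, n = 5). Windows 6, 21 and 27 were at 1.27% to 2.50% on average in either group, the lowest common levels of the domain.

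Across the domain, 0 of the 25 tested windows passed the threshold of a limma adjusted p under 0.05, where 14 of the 37645 windows tested over the genome passed (0.0372%), 11 of them lower and 3 higher in the mutant group. The direction of these calls over the genome is not stable: 4 were lower and 14 higher in densely covered embryos alone, 11 and 16 after quantile normalization, 6 and 27 without mutant replicate 12, 5 and 8 without mutant replicate 11, and 7 and 7 without mutant replicate 14. Limma with a trend and robust variance made 0 calls and the arcsine scale 1. With no adjustment, 0 of 25 had a limma p under 0.05, against 5.75% of all tested windows. The exact rank-sum test also gave 0 of 25 at an unadjusted p under 0.05, against 4.64% of all windows, and 0 after adjustment in the domain and over all windows. The values of the groups did not overlap in 0 of 25 domain windows and in 1.35% of all windows. After quantile normalization, and without control replicate 5 or mutant replicate 11, 12, 13 or 14, 1 of 25 had an unadjusted limma p under 0.05. At these shares, 0 of 25 windows is near the background. In densely covered embryos alone, 0 of 27 windows passed (0.0417% of all windows did) and 1 of 27 had an unadjusted p under 0.05 (6.44% of all): window 1 was there 12.8 points higher in 2 mutant than in 6 control embryos (SE 4.47, limma adjusted p = 0.652).

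**Figure D5:**
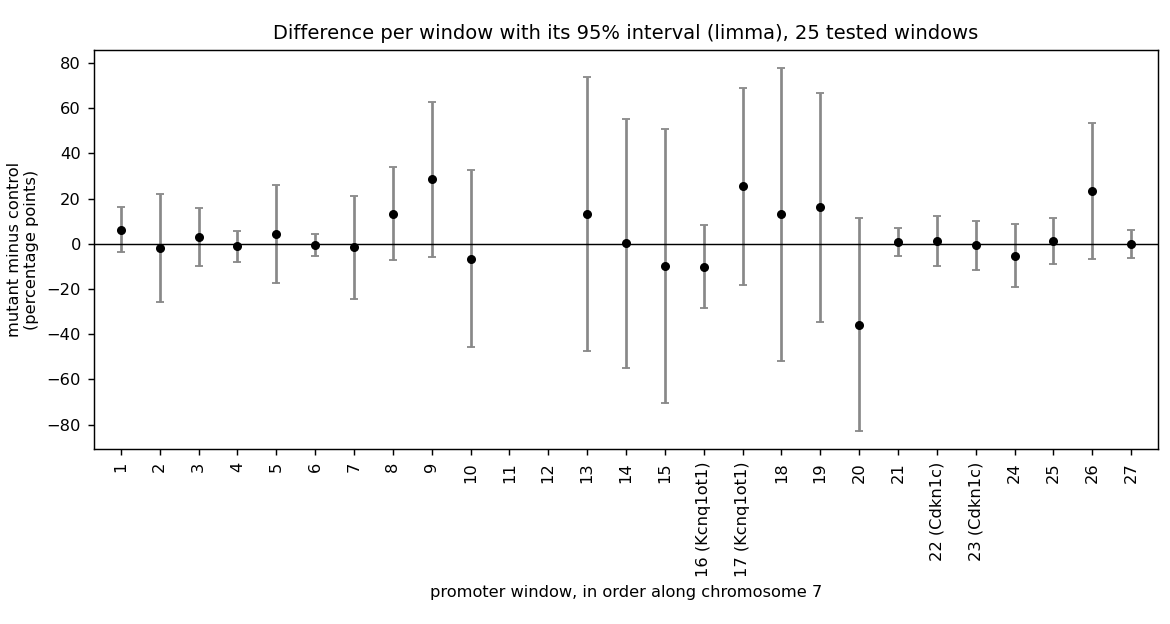
Difference in methylation level, mutant minus control in percentage points (points), with its 95% interval from limma (bars), for the 25 tested windows in order along the chromosome; windows 11 and 12 have too few values. All 25 intervals hold 0, and they are widest in windows 13 to 20 outside window 16.

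By direction alone, 10 of the 25 windows had a lower and 15 a higher mean in mutant embryos, with a median difference of 0.76 points. Over all 37645 tested windows the median was -1.07 points, and 55.8% had a lower mean. After quantile normalization 7 domain windows were lower and 18 higher, while over the genome the median turned to 0.36 points and 47.25% were lower. Among windows whose 2 group means averaged 20% or more, 3 of 10 domain windows and 61.7% of 9065 windows over the genome were lower in mutant embryos, with median differences of 13.15 and -7.33 points. Mutant values help to form this class. Windows 9 and 26, with control means of 14.1% and 12.6%, are in it through mutant means of 42.6% and 36.1%. Kcnq1ot1 window 16, at 21.7% and 11.7%, is outside it. Among the 9 tested domain windows with a control mean of 20% or more, 4 were lower, with a median difference of 0.30 points. The contrast with the genome therefore cannot be read as a result about the domain.

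These counts moved with single embryos and with the scale. Leaving out 1 embryo gave 7 of 25 lower domain windows (without mutant replicate 12) to 12 of 25 (without mutant replicate 11 or 14), and the arcsine scale gave 13 of 25. In the class of 20% or more, the domain median was 1.78 points without mutant replicate 14 (4 of 9 lower), 6.14 without mutant replicate 19 (5 of 10), 6.87 without mutant replicate 13 (3 of 10) and 7.62 without control replicate 1 (4 of 10). With each of the other 16 embryos left out it was 10.08 to 19.1 points. The class was formed anew from both group means each time, so these medians also depend on which windows it held. Over the genome the median of this class was -0.33 points without mutant replicate 12 (50.3% lower), -3.43 without mutant replicate 11, and -8.67 to -6.61 with each of the other 18 left out. In densely covered embryos alone 13 of 27 domain windows were lower, and in that class 6 of 11, with a median of -3.03 points beside -7.75 points over the genome. Mutant replicate 14 was also high outside the domain. Over the 17634 windows with a value in all 9 densely covered embryos its mean level was 14.6%, against 10.04% to 13.5% in the controls and 9.77% and 6.35% in mutants 11 and 12. Over the 9 domain windows among them it stood at 22.5%, the controls at 4.37% to 11.2%, and mutants 11 and 12 at 4.21% and 9.55%. What part its general level has in the domain values was not tested.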

How the data were processed

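Per the submitters' processing notes, the bisulfite reads went through Trim Galore 0.4.4 and Bismark 0.18.2, with GRCm39 (mm39) as the build. The table the authors deposited holds 1 score per promoter window and embryo, its methylation in percent, and no read counts. The way calls were pooled in a window, and any coverage minimum, are not stated in the sources at hand. Of 54080 rows, 46 repeats were dropped. Of 491705 values left, 1594 (0.324%), 1 of them in the domain, were whole numbers above 100 and were read as percents that had lost the decimal point (divided by 1000).

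Groups followed the labels. Limma 3.58.1 (R 4.3.3, lmFit and eBayes at default settings) was run on the untransformed percent over all windows that at least 3 controls and 3 mutants covered, with Benjamini-Hochberg adjustment over all of them and a threshold of 0.05. It was tried on these values shuffled among embryos, with known shifts put into windows that at least 5 embryos per group covered. Of the 25 tested domain windows, 15 had 3 or 4 mutant values, so no shift was tried at their size. Exact permutation and rank-sum tests used scipy 1.17.1 or a direct count, two-sided. Embryos with over 25000 windows were called densely covered. Alternatives were other minimums, coverage classes, transformations and tests, and leaving out each embryo.

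Windows described singly were those at Kcnq1ot1 and Cdkn1c, and of the others those past the threshold and, among tested windows, the 6 runs of overlapping windows that hold the highest control means and the 6 that hold the largest differences, each run being shown by its window with most values (the earlier one in a tie), so that window 9 stands for 9 and 10, and window 14 for 13 and 14; windows 1, 10, 11, 12, 13 and 24 were added after their values were seen. Members, lists and tests were chosen with earlier results of these data known. Lists of other imprinted and neighbouring genes were not used, since windows carry no gene names and the gene table is on build GRCm38.p6.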

Additional observations from a re-analysis of the deposited data

Results flagged for a closer look

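Within groups of 4 to 10 embryos, 4 values stood apart from the rest of their group, out of 22 groups of values checked. The rule set the gap to the next value against the range of the group. Its rate of about 1 in 20 by chance holds for normally distributed values. These are percents with many at exactly 0%, so the count cannot be set against that rate. In window 8, control replicate 2 stood at 5% where the other 5 controls were at 0%, so that any value above 0% would have been flagged. Mutant replicate 14 stood there at 50% where the other 3 mutants were at 0% to 6.67%. In window 18, control replicate 4 stood at 83.3%, and the next highest control at 22.2%. In window 22, at Cdkn1c, control replicate 10 stood at 29.4%, and the next highest controls at 9.09%.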

How the results depend on the processing

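No paired analysis was possible because the replicate numbers of the groups (1 to 10, 11 to 20) do not meet. The split into middle and flanks, its levels, the classes of level, the windows complete in densely covered embryos and the minimum of 2 embryos per group within coverage classes were chosen after seeing the data. The count of domain windows past the threshold, 0, was 0 in all 28 refits that could be made, 20 of them with an embryo left out; with at least 7 embryos per group no domain window was left to test, with at least 5 none at Kcnq1ot1 and 1 of the 2 at Cdkn1c. Among sparsely covered embryos 3 domain windows could be tested. Kcnq1ot1 kept its signs, with 1 embryo left out from -14.2 to -4.21 points in window 16 and from 1.78 to 47.6 points in window 17. With windows 16 and 17 averaged, as far as an embryo covered them, its difference was 5.87 points. With a single window of the pair it was -10.05 (window 16) or 25.4 (window 17). For windows 4 and 5 averaged it was 6.67 points, but -2.75 in densely covered embryos. Leaving out embryos gave -1.45 to 4.31 points in window 22 and -5.16 to 1.98 in window 23 (Cdkn1c), -21.4 to 11.97 in window 14, -24.3 to 0.73 in window 15, -17.9 to 32.1 in window 18 and -9.27 to 33.6 in window 19. In all, 17 of the 25 tested windows changed sign under at least 1 alternative, 17 with an embryo left out. In densely covered embryos 9 did, namely windows 2, 5, 6, 7, 10, 13, 14 (-12.9 points), 19 (-5.04) and 22 (-1.94). After quantile normalization 5 did, windows 2, 6, 7, 14 (-3.26) and 23 (0.14), and on the arcsine scale 3, windows 14 (-0.0499 on that scale), 25 and 27. The cause was not tested. With read depth unknown and at most 5 mutant values per window, a change of the size of the intervals could not be detected.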
